A study of Mus musculus with 4 samples.

Results

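The subject is a set of 2487 short intergenic regions of open chromatin that were found in every heart of the study. Peaks from 4 deposited lists were merged wherever they overlapped by at least 1 bp, which gave 53140 regions on chromosomes 1 to 19 and X. Regions were selected on their peak calls, width and position: a region entered the set if all 4 libraries had a peak in it, if it was under 1000 bp wide, if it lay outside every protein-coding gene and if the nearest start or end of such a gene was 1 to 100 kb away. Of the 53140 regions 16568 (31.2%) were called in all 4 libraries, and the set is 15.0% of those. Short intergenic regions called in at least 1 library numbered 13555, so 18.3% of them met the rule. Without edKO 2 the rule on the other 3 libraries gives 3856. Presence in all hearts is how the regions were chosen and not a result.

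The libraries are ATAC-seq libraries from total hearts of newborn C57BL/6 mice at postnatal day 0. In ATAC-seq the transposase Tn5 cuts and tags DNA where chromatin is accessible, and piles of tagged fragments are called as peaks. Both WT libraries and both edKO libraries came from individual hearts, 1 heart a library, and edKO hearts lack the retinoid X receptors RXRα and RXRβ in cardiomyocytes. The labels do not name the promoter or the Cre line behind this deletion, nor the sex of the hearts. Since nuclei of the whole heart were used, RXR genes remain intact in the other cells, and fewer cells of a type cannot be told apart from less open chromatin per cell. The study sequenced on average 25000000 paired-end reads per library, and the lists held 35279 (WT 1), 38809 (WT 2), 27473 (edKO 1) and 27142 (edKO 2) peaks. Values listed 4 at a time below follow this order of libraries.

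Intergenic accessible sites of this kind are where distal enhancers, boundary elements bound by CTCF and promoters of non-coding genes are found. Enhancers bind transcription factors and act on promoters that may be many kilobases away, so the nearest gene is a label and not a proven target. RXRs are nuclear receptors that pair with other receptors such as PPARs, thyroid hormone receptors and retinoic acid receptors and bind DNA with them at short repeated motifs. In the newborn heart they are known for their part in the switch to fatty acid use.

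A share of the set lies on the starts of long non-coding RNA (lncRNA) genes, and for those the sequence can be read. Shown are the windows, 250 bases before to 50 bases after the start, of lncRNA genes at strong members, from RefSeq on build GRCm38.p6, written 5′ to 3′ on the gene's strand with CG dinucleotides in capitals. D130051D11Rik is on chr15:85634346-85634645 (plus strand), 1700096K18Rik on chr5:25529768-25530067 (plus strand), Mir22hg, the host gene of miR-22, on chr11:75461289-75461588 (plus strand) and Snhg8, a small nucleolar RNA host gene, on chr3:123508287-123508586 (minus strand).
D130051D11Rik: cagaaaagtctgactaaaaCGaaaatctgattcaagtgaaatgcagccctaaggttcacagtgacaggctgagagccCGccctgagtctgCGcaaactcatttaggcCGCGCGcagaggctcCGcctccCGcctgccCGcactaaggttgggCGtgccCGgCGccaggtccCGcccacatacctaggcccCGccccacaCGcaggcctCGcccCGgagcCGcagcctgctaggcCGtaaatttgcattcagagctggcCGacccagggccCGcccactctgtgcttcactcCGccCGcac
1700096K18Rik: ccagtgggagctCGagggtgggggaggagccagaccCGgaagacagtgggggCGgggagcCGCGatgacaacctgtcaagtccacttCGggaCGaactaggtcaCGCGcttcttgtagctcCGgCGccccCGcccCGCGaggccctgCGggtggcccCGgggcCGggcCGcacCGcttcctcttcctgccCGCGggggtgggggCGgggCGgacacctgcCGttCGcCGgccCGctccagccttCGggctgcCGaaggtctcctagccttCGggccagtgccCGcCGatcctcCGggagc
Mir22hg: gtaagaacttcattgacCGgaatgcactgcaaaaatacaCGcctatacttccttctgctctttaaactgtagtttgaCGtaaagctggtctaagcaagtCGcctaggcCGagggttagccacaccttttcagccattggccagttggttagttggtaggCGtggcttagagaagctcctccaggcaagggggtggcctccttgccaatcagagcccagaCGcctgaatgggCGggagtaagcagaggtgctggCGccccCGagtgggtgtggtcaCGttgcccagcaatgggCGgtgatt
Snhg8: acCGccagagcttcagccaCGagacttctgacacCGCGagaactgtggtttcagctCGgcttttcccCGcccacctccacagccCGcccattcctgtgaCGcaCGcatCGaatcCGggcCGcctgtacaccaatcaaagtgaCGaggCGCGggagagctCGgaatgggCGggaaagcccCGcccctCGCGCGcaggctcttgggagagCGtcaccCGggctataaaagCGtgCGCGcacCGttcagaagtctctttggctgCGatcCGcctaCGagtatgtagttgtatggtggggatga

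These 4 windows hold 23, 33, 12 and 30 CG dinucleotides and have a GC content of 63.7%, 74.0%, 54.7% and 62.0%. Snhg8 thus carries 30 CG in a window where the median lncRNA window of the same intergenic sequence carries 4. The summit of the peak, the base with the highest pileup, lay near the start in Mir22hg, with a median of -40 bp over the libraries (negative values are upstream), and at 29 bp in D130051D11Rik. It lay farther upstream in Snhg8 (-140.5 bp) and in 1700096K18Rik (-315.5 bp), where it fell outside the window shown.

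Members also covered microRNA genes, 4 of the 2487 (0.161%). The share was 0.0518%, 0 and 0.0466% of short intergenic regions called in 3, 2 and 1 libraries. Mir6236 and Mir713 lie in members not shown here. For the genes of miR-212, miR-132 and let-7i 1 of the mature strands is shown, with the seed (bases 2 to 8) in capitals. The 3p strands of miR-212 and miR-132 share their seed, AACAGUC, while their 5p strands differ in seed. Both genes sit in 1 member, chr11:75172999-75173816, which lies 2127 bp from Ovca2.
miR-212-3p: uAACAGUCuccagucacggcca
miR-132-3p: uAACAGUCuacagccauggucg
let-7i-5p: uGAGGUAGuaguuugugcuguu

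The member with miR-212 and miR-132 had a −log10 p of 12.9, 15.7, 11.4 and 18.1. This −log10 p is the authors' value at the summit and grows with depth, so it is given to show the data, and strength is compared by rank. For that, each region's −log10 p was turned into a percentile among the 16568 regions called in all 4 libraries, separately in each library. A member's strength is the mean of its 4 percentiles. The miR-212 and miR-132 member had a strength of 31.4, close to the median of the set (31.2). The let-7i member, chr10:122985620-122986610, beside Mon2, stood higher at 60.5, with −log10 p values of 25.9, 34.1, 33.5 and 27.7.

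The strongest members reached the top of the whole ranking. The first, at chr15:75086598-75087064, 21097 bp from Ly6c2, a surface antigen gene of myeloid cells, had −log10 p values of 221, 248, 189 and 205 and a fold over background of 23.3, 23.7, 21.0 and 20.8. Its summits fell within 37 bp of each other. It overlapped no gene of any kind in the table. The second, at the start of D130051D11Rik, lies between Wnt7b, a Wnt ligand, and Ppara, the fatty-acid-sensing receptor that pairs with RXR, 52500 bp from the first and 99716 bp from the second. Its −log10 p values were 197, 258, 211 and 145. The third is at the start of 1700096K18Rik, 11392 bp from Cct8l1, with 208, 205, 160 and 120.

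The next 7 members were beside Ccne1, Fos, Tlcd2, Trappc9, Uspl1, Chd2 and Axin2, with strengths from 98.8 down to 97.0. The member 12587 bp on the 3′ side of Ccne1, the gene of cyclin E1 that drives entry into DNA replication, had −log10 p values of 158, 182, 163 and 151. The member 18162 bp on the 5′ side of Fos, a subunit of the AP-1 factor that stress and growth signals induce, had 168, 206, 141 and 104, with summits within 25 bp. The member 60764 bp from Axin2, a brake on Wnt signalling that Wnt itself induces, had 234, 157, 87.5 and 96.2.

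The weakest members lay beside Tmem158, Gsta4 and Sppl2c, with strengths of 0.973, 1.02 and 1.07. The member beside Tmem158 had −log10 p values of 4.69, 4.52, 4.53 and 5.24 and a pileup of 9, 9, 8 and 10 fragments. Pileups were solved from the fold and −log10 p of each peak and came out whole in 99.9858% of peaks or more of each list. The member beside Ly6c2 had pileups of 219, 245, 195 and 214.

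As a group the members had a fold near that of short regions inside genes and, in every library, below that of short regions at gene ends. Members had a median fold over background of 6.82, 7.36, 6.06 and 4.71. The 4174 short gene-body regions called in all 4 libraries had 6.67, 7.27, 6.20 and 4.66, and the 7746 short regions within 1 kb of a gene end had 9.62, 10.1, 8.97 and 6.79. The mean over libraries was 6.24 ± 1.15 (SD, n = 4) for members and 8.86 ± 1.46 for gene ends, a ratio of 0.704, lower in 4 of 4 libraries (two-sided exact sign-flip permutation test over libraries, p = 0.125, the smallest 4 libraries can give). Against gene bodies (6.20 ± 1.12) members were higher in 3 of 4 libraries by a mean of 0.0396 (exact p = 0.5). By −log10 p members were lower than gene bodies in 4 of 4 libraries, by a mean of 0.859 (exact p = 0.125). So the order of members and gene bodies turns with the measure, while gene ends were higher by both.

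**Figure D1:**
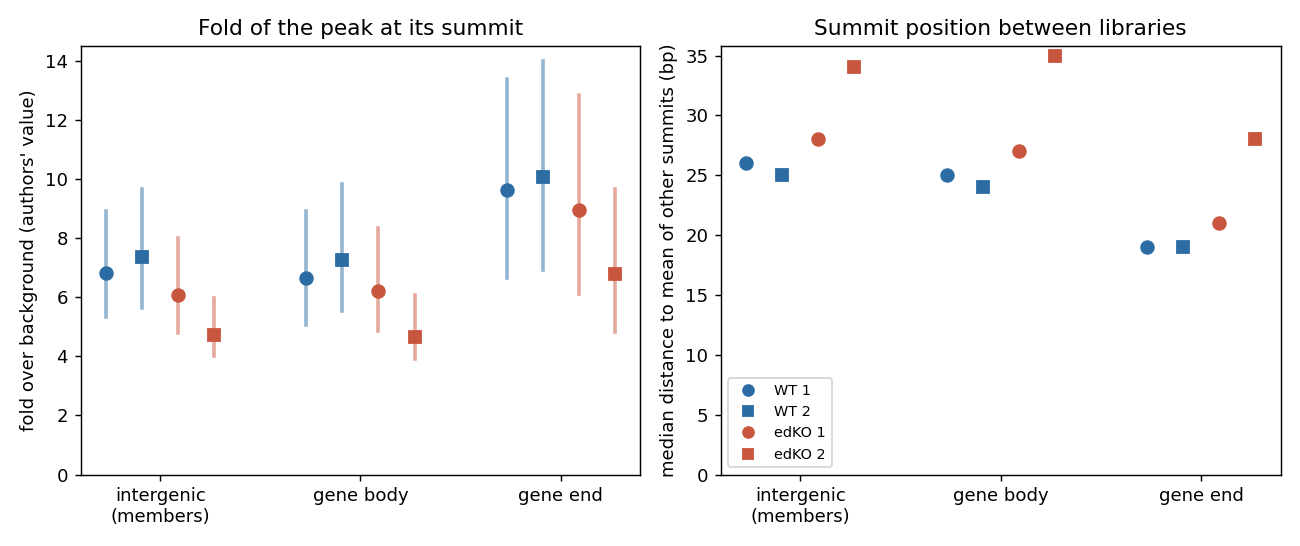
The left panel plots the authors' fold over background at the summit (median, with bars from the lower to the upper quartile over regions) and the right panel the median distance in bp of a library's summit from the median summit of the other libraries (called the mean in the axis label), for members, short gene-body and short gene-end regions in each of 4 libraries. Gene ends have the highest fold in every library, members and gene bodies lie together, and edKO 2 has the lowest fold and the widest summit distances in all 3 classes.

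The libraries placed the centre of a member nearly as tightly as the centre of a gene-body region. A library's summit lay a median of 26, 25, 28 and 34 bp from the median summit of the other libraries in members, 25, 24, 27 and 35 bp in gene bodies and 19, 19, 21 and 28 bp at gene ends. Members exceeded gene ends by 6.50 ± 0.577 bp (SD, n = 4), in 4 of 4 libraries (exact sign-flip test, p = 0.125, the smallest possible). They exceeded gene bodies by 0.5 ± 1 bp (exact p = 0.625). All 4 summits fell within 50 bp in 720 members (29.0%), against 30.2% of gene-body and 39.5% of gene-end regions. In 277 members (11.1%) they spread over more than 200 bp, near the 9.97% of gene-body and 10.8% of gene-end regions. edKO 2 had the lowest fold and the largest summit distance in each class, and its part in these values was not tested beyond leaving it out.

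The ranking of members was shared between hearts but less so than that of gene ends. Spearman's rho of the percentiles over the 2487 members was 0.813 between WT 1 and WT 2, 0.698 between edKO 1 and edKO 2 and 0.654 to 0.756 for the 4 WT and edKO pairs. The same values were 0.844, 0.717 and 0.667 to 0.789 in gene bodies, and 0.888 to 0.942 over all 6 pairs at gene ends. These are descriptions over regions that share libraries. The median member covered 21.5 percentile points between its highest and lowest library (quartiles 13.8 and 30.9). Members above the 90th percentile numbered 40 (1.61%), against 2.25% of gene-body and 12.9% of gene-end regions. Below the 10th were 220 members (8.85%), against 7.69% of gene-body and 3.18% of gene-end regions.

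Members were densest close to genes. Members were 237 to 991 bp wide with a median of 517 bp, and the median distance to the nearest protein-coding gene was 15761 bp (quartiles 6286 and 36045 bp). The genome holds 800.8 Mb of sequence that fits the rule on distance, which gives 3.11 members per Mb. From 1 to 5 kb there were 500 members, or 4.45 per Mb, then 4 per Mb from 5 to 10 kb, 3.49 from 10 to 25 kb, 2.75 from 25 to 50 kb and 1.86 from 50 to 100 kb. The share of short intergenic regions that were called in all 4 libraries went from 20.8% in the nearest to 16.3% in the farthest bin. The median fold was higher in the farthest than in the nearest bin in each library, at 7.19 against 6.06 in WT 1, 7.84 against 6.44 in WT 2, 6.33 against 5.57 in edKO 1 and 4.70 against 4.45 in edKO 2, where it was highest, at 4.83, from 25 to 50 kb. By strength, the rank of −log10 p, the order turned. The median strength was 32.3 in the nearest bin and 29.2 in the farthest, the lowest of the bins.

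The side of the gene could be read for 1895 members, those whose nearest gene has a strand in the RefSeq promoter table. On the 5′ side lay 937 members, or 2.78 per Mb, and on the 3′ side 958, or 3.32 per Mb. From 1 to 5 kb there were 3.35 per Mb on the 5′ side and 5.65 on the 3′ side, from 5 to 10 kb 3.52 and 4.25, from 10 to 25 kb 3.04 and 3.56, from 25 to 50 kb 2.67 and 2.68, and from 50 to 100 kb 1.89 and 1.82. By chromosome, density was highest on chromosome 11, with 195 members at 5.44 per Mb, and on chromosomes 15 (4.86) and 17 (4.67), and lowest on X, with 46 members at 0.704 per Mb.

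**Figure D2:**
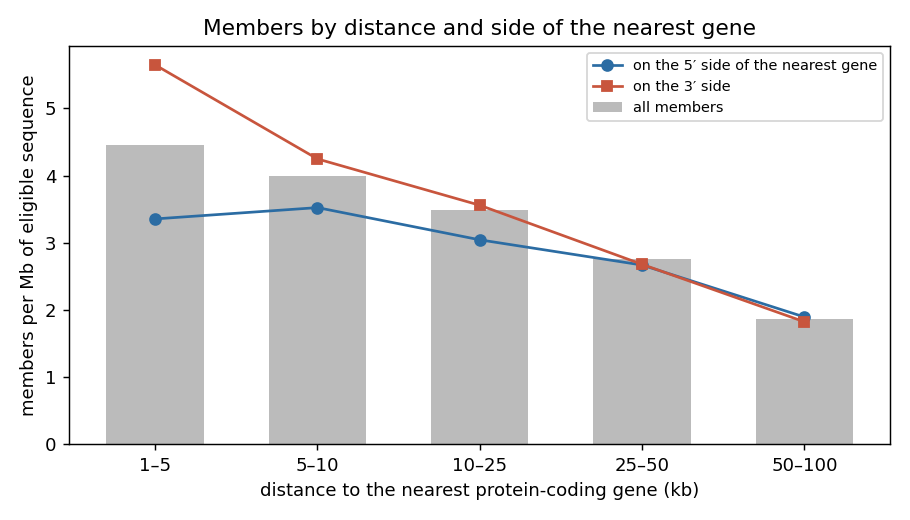
Members per Mb of eligible sequence (y axis) by distance to the nearest protein-coding gene in kb (x axis), with bars for all members and lines for members on the 5′ and 3′ side of genes with a known strand. Density goes from 4.45 to 1.86 per Mb over the bins, and the sides differ most from 1 to 5 kb and least from 25 to 50 kb.

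Many members that are intergenic for protein-coding genes touch other genes. Of the 2487, 775 (31.2%) overlapped a gene that is not protein-coding, against 24.0% of the 1932 short intergenic regions called in 3 libraries, 22.1% of the 2697 called in 2 and 21.9% of the 6439 called in 1. An lncRNA start window overlapped 193 members (7.76%, 95% Wilson interval 6.77 to 8.88), against 3.26%, 2.52% and 1.66% of regions called in 3, 2 and 1 libraries. Seen from the genes, 204 of 4231 lncRNA genes with a start in the eligible sequence (4.82%) had a member over it. Members were also wider, with a median of 517 bp against 390, 322 and 222 bp. Among regions of 400 to 600 bp only, a split added after the values were seen, the shares were 5.62%, 3.80%, 2.08% and 1.18% for 4, 3, 2 and 1 libraries.

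Genes of transfer RNAs, which RNA polymerase III transcribes, overlapped 37 members (1.49%) and 0.673%, 0.482% and 0.171% of the regions called in 3, 2 and 1 libraries. At 400 to 600 bp the shares were 0.963% (12 of 1246 members), 0.814% (6 of 737), 0.189% (1 of 530) and 0 of 169, so members and regions called in 3 libraries lay close at that width. Genes of small nucleolar or small nuclear RNAs overlapped 14 members (0.563%), against 0.104%, 0.0371% and 0.0777% of regions called in 3, 2 and 1 libraries. Pseudogenes overlapped 35 members (1.41%), against 1.19%, 0.927% and 1.96%, and so were most frequent in regions called in 1 library. Since tRNA, snRNA and pseudogene copies are nearly identical in places, how reads were shared among them could move single values, and the handling of such reads is not given in the sources used here. Intervals cover counting error only.

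**Figure D3:**
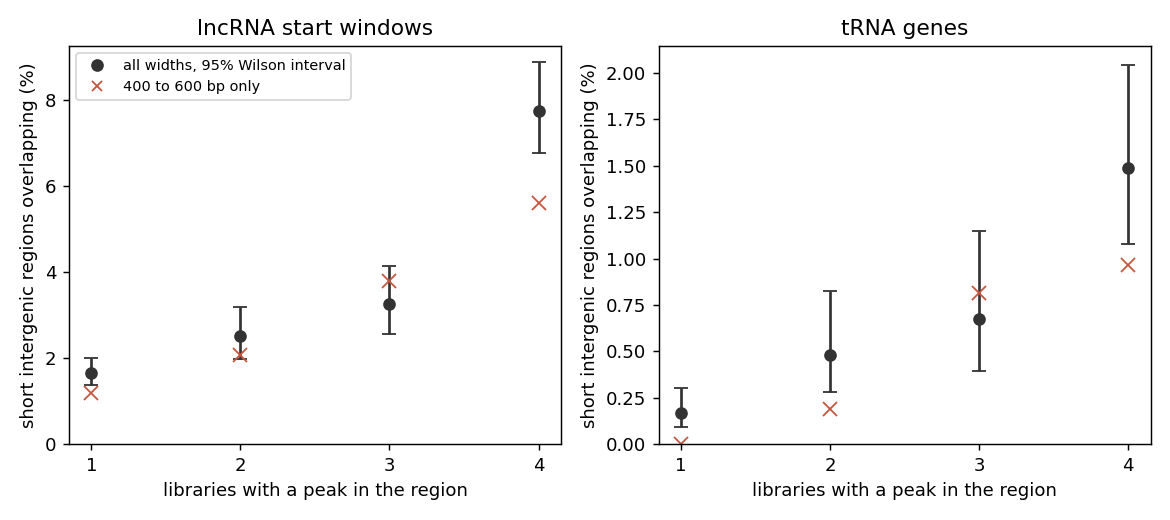
Share of short intergenic regions (%) that overlap an lncRNA start window (left) or a tRNA gene (right), by the number of libraries with a peak in the region. Circles with 95% Wilson intervals are all widths, crosses are regions of 400 to 600 bp; both are highest in the regions called in all 4 libraries, where the circles stand at 7.76% and 1.49%.

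Members at lncRNA starts had a higher fold than the others in every library. Their median fold was 7.72, 8.41, 6.87 and 5.13, against 6.74, 7.27, 5.97 and 4.67 for the 2294 other members. The difference was 0.869 ± 0.290 (SD, n = 4), higher in 4 of 4 libraries (exact sign-flip test, p = 0.125, the smallest possible). They made up 13 of the 40 members above the 90th percentile. The summit lay at a median of -50, -45, -48.5 and -43.5 bp from the start, and was upstream in 139, 131, 135 and 123 of the 204 genes.

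The lncRNA genes with given names among these include hosts of small RNAs and known regulators, and those given here were picked after their values were seen. Snhg8, with the small nucleolar RNA gene Snora24, had −log10 p values of 175, 159, 97.7 and 77.7. The start of Mir1a-1hg, host of the muscle microRNA miR-1a-1, 49603 bp from Gata5, had 92.2, 154, 72.3 and 53.5. Crnde, near the homeobox gene Irx5, had 86.3, 93.3, 70.6 and 48.6. Dancr, with Snora26, had 93.3, 82.9, 47.8 and 36.0. Jpx, an activator of the X-inactivation gene on the X chromosome, had 25.7, 38.8, 21.0 and 20.2. Rn7sk, the 7SK RNA that holds back transcription elongation, lay in a member with 52.9, 47.4, 20.2 and 18.3. The strongest tRNA member held the asparagine tRNA gene n-TNgtt14 near Uspl1, with 158, 169, 117 and 76.7.

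The windows at members held more CG dinucleotides than other lncRNA starts. Their median GC content was 57.0% (n = 204), against 52.3% for windows in short intergenic regions called in 1 to 3 libraries (n = 232) and 47.0% for windows in no called region (n = 3780). The median number of CG dinucleotides was 12, 6 and 3, and 34.3%, 9.48% and 1.77% of windows had more than 60% GC. The ETS motif CGGAAG, on either strand, was in 19.1%, 10.8% and 6.72% of windows, and in 17.2% of the start windows of all 27025 genes in the table. The GATA motif AGATAA ran the other way, with 6.86%, 13.4% and 16.1% (11.4% of all genes). The core motif of nuclear receptors, AGGTCA, was in 18.6%, 18.1% and 21.2% (16.0% of all genes). A CTCF motif, searched by name, was in 5.88% and 6.47% of windows at members and at other called regions, and in 0.794% of windows in no called region. These matches describe letters in 300-base windows and show no bound factor. The window groups differ in GC and CG content, and motif shares were not adjusted for it. The set as a whole was not searched, since only start windows come with sequence.

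Protein-coding genes next to members were counted over 21 lists of genes. Across all 21631 genes, 1857 (8.58%) were the nearest gene of at least 1 member. Among 30 natriuretic peptide and stress genes it was 19 (63.3%), with 32 members, and among 40 cardiac transcription factor genes 18 (45%), also with 32. Genes of endothelium and endocardium followed with 10 of 28 (35.7%), sarcomere genes with 12 of 36 (33.3%) and developmental signalling genes with 13 of 40 (32.5%). Oxidative phosphorylation and the TCA cycle had 3 of 40 (7.50%), fatty acid uptake and oxidation 5 of 40 (12.5%), brain neuron genes 2 of 20 (10%), and liver genes 0 of 20. Lists differ in the intergenic sequence they have: the median gene had 112.8 kb in the cardiac transcription factor list, 6.74 kb in oxidative phosphorylation and 16.6 kb over all genes. Per 100 kb of that sequence there were 1.79 members for sarcomere genes, 1.60 for stress genes, 0.702 for cardiac transcription factors and 0.547 for oxidative phosphorylation, against 0.311 over all genes, and 1.88 for housekeeping genes (5 of 25). Also above cardiac transcription factors were smooth muscle and pericyte markers (1.03), PPAR and RXR partner target genes (1.02) and glycolysis and glucose uptake (0.987). So were cell cycle (0.850) and developmental signalling genes (0.846). The remaining lists were lower, from 0.673 for endothelium and endocardium down to 0 for liver and epicardial genes. Among markers of the heart's other cells, fibroblast genes had 6 of 22 (27.3%) and neuronal and Schwann genes 2 of 13 (15.4%). Smooth muscle and pericyte genes had 2 of 14 (14.3%). Erythroid genes had 1 of 11 (9.09%), immune genes 1 of 16 (6.25%) and epicardial genes 0 of 12, beside 8.58% of all genes.

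**Figure D4:**
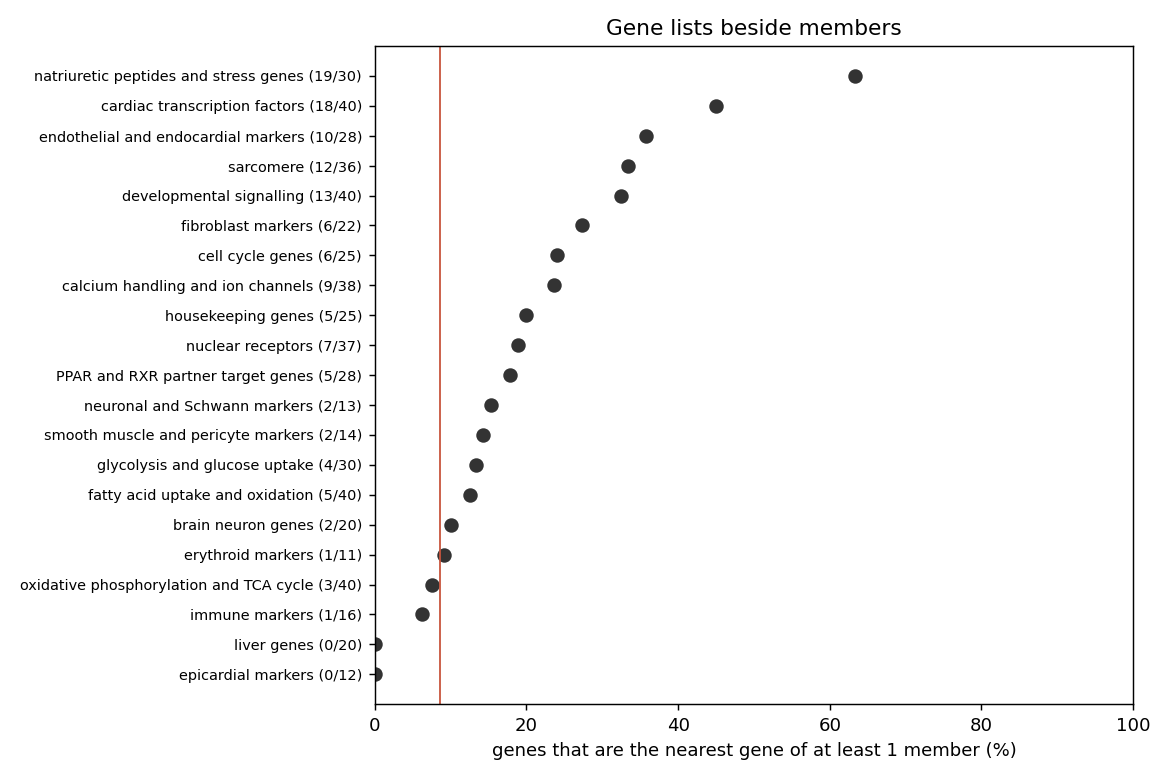
Percent of the genes of each of 21 lists (y axis, with counts) that are the nearest protein-coding gene of at least 1 member; the line marks 8.58% of all protein-coding genes. Stress genes (63.3%) and cardiac transcription factors (45%) stand highest, and liver and epicardial genes are at 0.

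Among the stress genes Fos had 5 members, and Klf2, a flow-induced factor of endothelium, Btg2 and Fosb had 2 each. The strongest member of Klf2, 22914 bp on its 5′ side, had −log10 p values of 84.1, 118, 64.1 and 32.2. Nppb, the gene of the natriuretic peptide BNP, had 2 members. Their member 18162 bp from Fos, given above, was the strongest of the list.

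Among cardiac transcription factors Mef2d, Irx4 and Nkx2-5 had 3 members each. A member 5366 bp on the 3′ side of Mef2d had −log10 p values of 87.3, 95.03, 66.6 and 39.1 and a strength of 86.8. The 3 members of Nkx2-5, the homeobox gene that marks heart muscle from its origin, lay 5271, 20132 and 23724 bp on the 5′ side, with strengths of 53.5, 15.4 and 56.4. Both GATA genes with members, Gata5 and Gata6, had 2 each, and Gata4 and Tbx5 were the nearest gene of none. Hand2, Tbx3, Myocd, Meis1 and Tead1 had 2 each.

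Among sarcomere genes Myh7, the slow or beta myosin heavy chain of the fetal ventricle, Xirp1 and Ankrd1 had 3 each. The members of Myh7 lay 2076, 9130 and 9831 bp on its 5′ side, all within the lncRNA gene Gm31251, and had strengths of 60.01, 85.8 and 65.1. The middle one had −log10 p values of 79.1, 96.8, 51.5 and 47.8. Actc1, cardiac actin, had 2 members, 1218 and 4387 bp on its 5′ side. Ion handling genes were next to fewer members: Atp2a2, the calcium pump of the sarcoplasmic reticulum, and Gja5, connexin 40, had 2 each, and Ryr2, the calcium release channel, had 1.

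Nuclear receptor genes and their targets are the lists closest to the deleted receptors. Of the nuclear receptor genes 7 of 37 (18.9%) were nearest to a member, and of the PPAR and RXR partner target genes 5 of 28 (17.9%), beside 8.58% of all genes. Housekeeping (20%) and cell cycle genes (24%) had higher shares. The median nuclear receptor gene had 59.3 kb of eligible sequence, against 16.6 kb over all genes. Per 100 kb nuclear receptor genes had 0.439 members and partner target genes 1.02, against 0.311 over all genes. Ppara had 4 members, at 9653, 25152, 47511 and 56431 bp on its 5′ side, with strengths of 78.9, 10.8, 18.3 and 59.2. Rxra, the targeted gene, had 2. The member 39248 bp on its 5′ side had −log10 p values of 18.2, 30.7, 30.4 and 9.26, and the one 1601 bp beyond its 3′ end had 9.55, 7.25, 8.58 and 7.39. Rxrb had none. Neither member lies in the gene, so they do not check the deletion. Klf15, a metabolic factor of heart muscle, had 4 members within 23064 bp of its 3′ end, and Klf9 had 3. Tsc22d3 had 2, and Abca1 and Rarb had 1 each. With Klf15 and Klf9 these make up the 5 partner target genes with a member. The name of the list is a label, and action of RXR or its partners on these genes was not tested. In the fatty acid list Lpl, lipoprotein lipase, Acsl1 and Acsl3 had 1 each.

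Most genes with a member had 1 (1433 genes), 424 had 2 or more and 46 had 4 or more. Smad6, an inhibitor of BMP signalling that is active in heart valves, had the most, 8 members from 10715 to 74789 bp away on both sides, with strengths from 1.67 to 56.7. Il17b and 1700001O22Rik had 7 each, and Tex44, Irf2bpl, Azin1, S1pr1 and 1600014C23Rik 6 each, followed by Fos and Slc38a2, an amino acid transporter gene, with 5. S1pr1 is a lipid receptor of endothelium. The members assigned to 1600014C23Rik lie, 5 of 6, on the side of Vegfa, the growth factor gene for vessels, and 4 are within the lncRNA gene F630040K05Rik.

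Members also came in runs. Counting neighbours up to 10 kb apart, 243 runs of 2 or more held 556 members (22.4%), and 16 runs held 4 or more. The longest had 6 members between Lrrc74a and Irf2bpl on chromosome 12. Their strengths were 12.4, 27.3, 19.6, 81.3, 74.4 and 48.3 in genomic order, so weak and strong sites lay side by side. A run of 5 followed Tex44 toward Ptma, with strengths from 8.33 to 89.0. Another run of 5 lay between Csnk1a1 and Il17b, over the lncRNA genes Carmn and Bvht, known for their part in the cardiovascular lineage, with strengths from 10.8 to 45.8.

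The comparison of WT with edKO hearts asked where these sites stood in the ranking of each library. By the rule every member has a peak in both edKO libraries, so sites that lost their peak there are left out. It therefore covers only sites called in every heart, and the edKO lists were the shorter ones. The median percentile of members was 33.2 and 33.8 in the WT libraries and 32.2 and 31.0 in the edKO libraries. The WT mean was 33.5 ± 0.446 (SD, n = 2) and the edKO mean 31.6 ± 0.873, a difference of 1.90 points with no overlap (exact permutation test, two-sided, p = 0.333, the smallest that 2 against 2 can give). Gene-body regions differed by 1.09 points (exact p = 0.667) and gene-end regions by -0.724 (exact p = 0.333), that is, toward edKO. The percentiles of the classes are ranks in 1 common list, so a class that goes down moves others up. Whether the difference itself differs between classes was not tested.

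Single members were set apart where both libraries of 1 genotype lay at least 10 percentile points above both of the other. All have a peak in every library by the rule, so sites that lost a peak are not counted. In 180 members (7.24%) WT was above edKO, beside 4.35% of all 16568 regions, and in 98 (3.94%) edKO was above WT, beside 4.24%. In gene bodies the shares were 6.61% and 5.25%, and at gene ends 2.61% and 3.90%. The count differed with rank. Among the 965 members with a strength of 25 or less, 5.70% were above in WT and 3.94% in edKO, beside 4.42% and 4.92% of all 3981 regions there. From 25 to 50 it was 83 (9.36%) and 48 (5.41%) of 887 members, beside 7.62% and 7.38% of all 4605 regions. From 50 to 75 it was 38 (8.32%) and 12 (2.63%) of 457, beside 4.35% and 3.60% of 4000. Over 75 it was 4 (2.25%) and 0 of 178, beside 0.502% and 0.552% of 3982. Short gene-body regions in the same bins had 4.77%, 9.72%, 6.84% and 1.06% above in WT. Above in edKO they had 4.51%, 7.91%, 3.66% and 1.06%. From 25 to 50 the WT share of gene bodies was thus higher than that of members. With an edKO library left out, which leaves 1 in that group, the share above in edKO was over that of all regions, at 15.1% against 14.7% without edKO 1 and 12.8% against 11.0% without edKO 2. With 2 libraries a group no region has a test of its own. The median fold of members was lower in both edKO libraries than in both WT libraries, so enrichment of the library and genotype cannot be told apart.

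**Figure D5:**
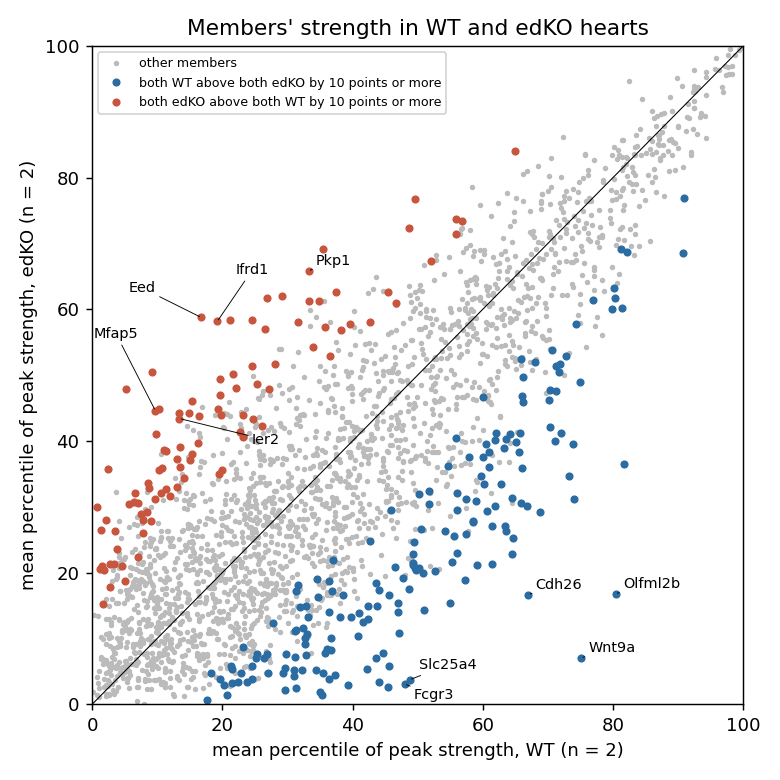
Each point is 1 of 2487 members, with its mean percentile of −log10 p in WT (x axis) and edKO libraries (y axis); colours mark the 180 members with both WT libraries and the 98 with both edKO libraries at least 10 points above the others, and names the 5 with the largest gaps each way. Points thin out toward the corners, and the largest gaps are on the WT side.

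The largest gap was at chr11:59337885-59338417, 4333 bp on the 3′ side of Wnt9a, a Wnt ligand gene. Its −log10 p was 55.0 and 64.4 in WT and 6.58 and 6.07 in edKO, its fold 9.72 and 11.2 against 4.12 and 3.69, and its pileup 82 and 88 against 13 and 14 fragments. The percentiles were 73.9 and 76.4 against 5.70 and 8.39, so the groups were 65.5 points apart, and the summits of all 4 libraries still fell within 49 bp. Next came the member 21032 bp on the 5′ side of Olfml2b, an extracellular matrix gene, with −log10 p values of 64.9 and 76.8 in WT and 13.2 and 4.47 in edKO. Here the edKO libraries differed from each other, with percentiles of 32.7 and 0.869.

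The others at this end lay beside Cdh26, Slc25a4 and Fcgr3, with gaps of 44.2, 43.6 and 40.7 points. Slc25a4 encodes the ADP/ATP carrier of muscle mitochondria, and its member, 25606 bp on the 5′ side, had −log10 p values of 29.4 and 30.3 in WT and 6.09 and 5.27 in edKO. The member beside Fcgr3, an Fc receptor gene, holds the tRNA gene n-TGgcc4, and its summits spread over 356 bp. These members were chosen for their gaps, so the values describe them and test nothing.

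The gaps in the other direction were smaller. The largest, 31.4 points, was at the start of the lncRNA gene Gm40403, 24808 bp on the 5′ side of Ifrd1, with −log10 p values of 13.2 and 15.5 in WT and 20.6 and 20.03 in edKO. Its fold was 6.21 and 7.23 in WT and 9.22 and 8.90 in edKO. Members beside Mfap5, a microfibril gene, Pkp1, Eed, a Polycomb gene, and Ier2, an immediate early gene, followed with gaps of 29.2, 28.5, 26.8 and 23.9 points. The member of Pkp1, a desmosome gene, also lies 9603 bp from Tnnt2, cardiac troponin T, and had −log10 p values of 18.2 and 23.1 in WT and 28.7 and 21.4 in edKO.

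Within the lists the same counts were small, and they stand beside 7.24% and 3.94% of all members and 4.35% and 4.24% of all regions. The sarcomere list had 2 of its 19 members above in WT and 1 in edKO, the cardiac transcription factors 4 and 0 of 32, developmental signalling 5 and 2 of 31, and the stress genes 1 and 3 of 32. The median difference of percentiles, WT minus edKO, was 9.02 points for sarcomere members, 2.06 for cardiac transcription factors and -1.79 for stress genes, against 1.18 for all members. It was -9.44 for the 11 members of PPAR and RXR partner target genes, -1.36 for the 11 of nuclear receptor genes and 4.68 for the 5 of fatty acid genes. Most of the partner target members lie beside Klf15 (4), Klf9 (3) and Tsc22d3 (2), so the -9.44 mainly describes these genes and not the list. Action of RXR or its partners on these genes was not tested. Myh7 had members on both sides: the one at 2076 bp was above in WT by 13.1 points and the one at 9831 bp above in edKO by 13.2. Members at lncRNA starts were above in WT in 15 of 193 (7.77%) and in edKO in 9 (4.66%), beside 7.19% and 3.88% of the other members.

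The bounds of the rule cut through like regions. The widest member, beside Scd2, was 991 bp, and a region of 1000 bp beside Zfp395 with a strength of 95.2 was outside. The nearest member lay 1000 bp from Gm7244, and a region 990 bp from Gnai2 was outside. The farthest lay 98908 bp from Rai14, and a region 100359 bp from Rybp was outside. There were 70 intergenic regions of 1 kb or more and 348 short regions over 100 kb from a gene that were called in all 4 libraries and fall outside the set.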

How the data were processed

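ATAC-seq peaks were called by the authors per library, not on pooled samples. The submitters' processing notes name MACS2, Bowtie2, SAMtools, cutadapt, CASAVA and bcl2fastq, and as builds GRCm38 and mm10. Versions, Tn5 shift and filters: not given in the sources used here. The authors' deposited lists give for each peak a score, a fold over local background (a ratio), −log10 p and −log10 q. The score and the −log10 q were not used. Fold and −log10 p served to describe and rank peaks within a list.

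Groups and replicate numbers came from the sample titles. Merging, percentiles, exact tests over libraries and figures were made with Python 3.11.15, numpy 2.4.6, pandas 2.3.3, scipy 1.17.1 and matplotlib 3.10.9, and the steps were tested on simulated data. Relative depth was read as the lowest background of a library, 1.81 and 1.80 in WT, 1.51 and 1.92 in edKO, with pileups solved within 0.002 in −log10 p. Genes were those of RefSeq GRCm38.p6 (21631 protein-coding genes), with strand for 17274 from the promoter table, and all 565 entries of the 21 lists matched. Motifs were planned for all members; without a genome they were searched in lncRNA start windows, which were chosen after the lists were seen.

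Named were the 10 strongest and 3 weakest members, the 10 genes with most members, up to 4 genes and the strongest member per list, the 5 largest gaps each way, the 3 longest runs, members at the bounds and those of Rxra and Rxrb. Other names were added after their values were seen. The members and lists were chosen with earlier results of these data known.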

Additional observations from a re-analysis of the deposited data

How the results depend on the processing

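Other settings were peaks up to 100 bp apart merged, a −log10 p of at least 5 or 10, lists of equal length, peaks covering at least 50% of a region, distances up to 50 kb and each library left out. Members numbered 991 at a −log10 p of at least 10 and 2579 to 3856 with a library left out, the highest without edKO replicate 2. The lower fold and wider summits against gene ends kept their direction under all of them. The fold difference from gene bodies was -0.00702 at a −log10 p of at least 10 and -0.0153 within 50 kb, and -0.859 with −log10 p in place of fold. The summit difference from gene bodies was 0 bp at a −log10 p of at least 5, and -0.25 bp at 10 and with lists of equal length.

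WT stayed above edKO in the median percentile, by 1.12 (within 50 kb) to 3.08 points (−log10 p of at least 10). Replicate numbers pair nothing the labels state: the deviations of same-numbered libraries had a correlation of -0.0233 over 16568 regions. With the replicate block the difference was 1.90 points (exact p = 0.5, the smallest possible). Members above in WT were 82 at a −log10 p of at least 10 (8.27%, all regions 4.17%; edKO 36, 3.63%, 4.27%), 117 with 50% coverage (6.50%, 3.82%; edKO 62, 3.44%, 3.63%), 591 with any gap above 0 (387), and 395 to 614 with a library left out (236 to 492); in the last case 1 library stands for a group. With any gap above 0 the shares were 23.8% and 15.6%, beside 19.9% and 20.2% of all regions. The share above in edKO passed that of all regions without edKO replicate 1 (15.1%, 14.7%) and 2 (12.8%, 11.0%).

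Genes nearest to a member were 8.11% and 3.74% at a −log10 p of at least 5 and 10, 7.86% with equal lists, 6.53% with 50% coverage, 7.67% within 50 kb, 17.2% with any gene within 50 kb, and 8.83% to 12.3% with a library left out. Of 231 list counts under these settings 191 stayed within 1.5 times. The share of members within 10 kb was 43.4% with the 50 kb limit and 35.8% to 37.5% with a library left out. The share in runs was 17.4% at a −log10 p of at least 10, 20.6% with equal lists, 19.9% with 50% coverage, and 22.7% to 27.0% with a library left out. Members at or within 1 kb of other genes were 34.4%, and 31.2% by overlap alone. The causes were not tested. The planned change of motif window was not run, as no genome is used here.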
